A study of Mus musculus with 12 samples.

Results

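The 9 matricellular and related genes described here are the thrombospondins Thbs1, Thbs2, Thbs3 and Thbs4, tenascin-C (Tnc), periostin (Postn), Sparc, Cthrc1 and C1qtnf3. They were chosen by name, and each was read from the transcript cluster of the array, a probe set, that carries its symbol and no other. All 9 had 1 such cluster, so the rule for choosing among several by their mean decided nothing, and 9 of the 19752 genes measured are covered. The genes were listed when the responses of several of them were already known, so their falls and counts are a description and not independent evidence.

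The tissue was whole tibialis anterior (TA) muscle. The mice were C57BL/6 and 8 weeks old, and the muscle was injected with cardiotoxin, a snake toxin that destroys fibres and sets off regeneration. Amphiregulin (AREG), a growth factor of the epidermal growth factor family, went into the muscle at injury and into the peritoneum every other day after it, with phosphate-buffered saline (PBS) as vehicle. The 12 arrays (Affymetrix Mouse Gene 1.0 ST) formed 4 groups of 3: AREG and PBS in Foxp3-DTR- mice at day 4, and, in Foxp3-DTR+ mice at day 8, AREG and PBS. All mice were injured and received diphtheria toxin every other day. The Foxp3-DTR transgene puts the toxin's receptor on Foxp3+ regulatory T (Treg) cells, so the toxin kills these cells only in mice that carry it, and the series sets muscle with Treg cells against muscle without them. No uninjured muscle, no day 8 muscle of Foxp3-DTR- mice and no day 4 muscle of Foxp3-DTR+ mice is among the arrays, so day and genotype cannot be told apart. Nothing in the labels says that the arrays of a group come from different animals, so the p-values reflect the spread of these samples, which may be technical.

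Median intensity lay between 134 and 143 on the 12 arrays. The fibre genes Acta1 and Ckm had log2 group means from 13.81 to 13.87 and from 13.66 to 13.81, far above the median gene level of 7.15, which fits the tissue label. Foxp3 itself had log2 means of 6.66 and 6.55 in AREG and PBS muscle of Foxp3-DTR+ mice, and 6.60 and 6.57 in AREG and PBS muscle of Foxp3-DTR- mice. These lie below the median gene level, so the array does not check the depletion. Replicate 1 of AREG at day 4 and replicate 3 of AREG at day 8 stood apart for the matricellular genes, since each held the lowest value of its group for 8 of the 9.

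Matricellular proteins are secreted into the extracellular matrix but act mainly as signals and organisers rather than as load-bearing fibres. They bind collagens, proteases, growth factors and cell-surface receptors such as integrins, CD36 and CD47, and they are typically scarce in resting tissue and induced by injury. In muscle they are made largely by fibroblasts, fibro-adipogenic progenitors and tendon cells, with Thbs1 also released by platelets and macrophages. C1qtnf3 is usually counted with the C1q/TNF-related secreted proteins and is included as a secreted matrix-associated gene.

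The highest level of all 9 genes was in PBS muscle at day 4 and the lowest in AREG muscle at day 8. AREG arrays at day 4 lay wholly below PBS arrays at day 4 for 9 of the 9, where 12% of all genes did so, and AREG arrays at day 8 lay wholly below PBS arrays at day 8 for 8 of the 9, against 7.14% of all genes. All 9 differences were below 0 on both days, as were 40.9% of all genes at day 4 and 48.8% at day 8. A gene was called where its limma p, adjusted over all genes by Benjamini-Hochberg, was under 0.05. By that rule 5 of the 9 were lower with AREG at day 4, as were 2.11% of all genes. At day 8 limma called 0 of the 9, and 0.00506% of all genes, while 8 of the 9 and 7.62% of all genes had an unadjusted p under 0.05. Values below are log2 intensities, so a difference of 1 is a 2-fold change, and they can be compared between arrays but not between genes. In bulk muscle, fewer cells of a type and less RNA per cell cannot be told apart.

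**Figure D1:**
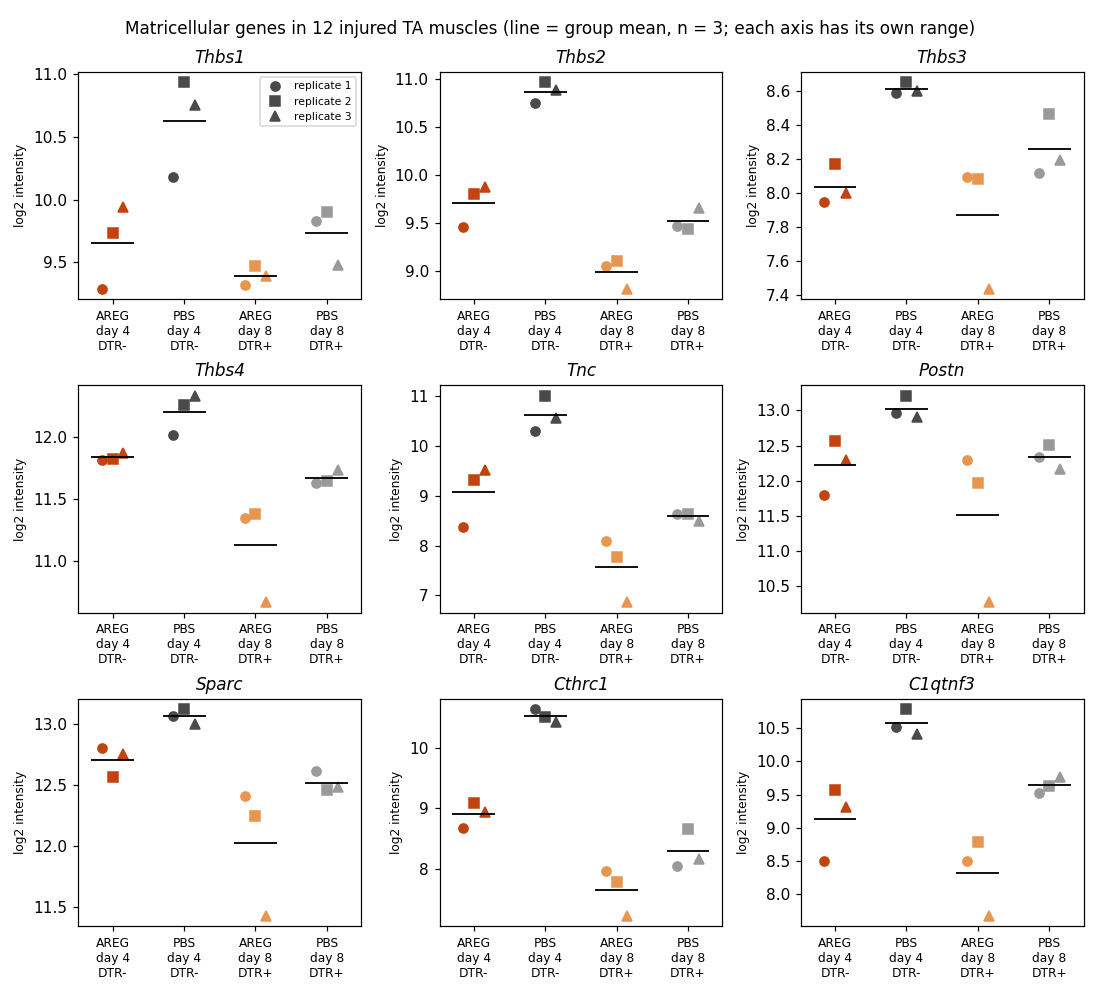
Each panel plots 1 gene, with log2 intensity on the vertical axis (each panel has its own range) and the 4 groups side by side, 3 arrays per group by replicate number and a line at the group mean. PBS muscle at day 4 is highest in all 9 panels, and replicate 3 of AREG at day 8 is the lowest of its group for all genes but Thbs1.

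Among the thrombospondins, Thbs2 had the clearest separation. It encodes a trimeric glycoprotein that restrains angiogenesis and guides collagen fibril assembly. Its log2 intensity was 9.45, 9.81 and 9.87 in AREG muscle at day 4, against 10.76, 10.97 and 10.88 in PBS muscle at day 4. At day 8 it was 9.05, 9.10 and 8.81 in AREG muscle, against 9.46, 9.44 and 9.66 in PBS muscle. The groups did not overlap on either day, and AREG muscle at day 4 overlapped only with PBS muscle at day 8. The AREG difference was -1.16 ± 0.13 at day 4 (SE of the fit, n = 3 per group, adjusted p = 0.00279, limma) and -0.53 ± 0.13 at day 8 (adjusted p = 0.599, limma), on the log2 scale.

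The 300 bases around the start of Thbs2 are given because it was called in every fit at day 4. They run from 250 bases before to 50 after the RefSeq start (GRCm38.p6, chr17:14694213-14694512, minus strand), 5′ to 3′, with the capitals marking a TATAAA match on the opposite strand 126 to 121 bases before the start.
Thbs2: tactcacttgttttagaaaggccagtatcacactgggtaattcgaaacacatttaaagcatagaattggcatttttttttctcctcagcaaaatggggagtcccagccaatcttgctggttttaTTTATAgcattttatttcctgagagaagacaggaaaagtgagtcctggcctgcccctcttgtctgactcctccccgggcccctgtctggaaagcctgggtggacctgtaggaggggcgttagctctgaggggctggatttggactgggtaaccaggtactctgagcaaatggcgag
TATAAA, the core of the TATA box, was present on either strand in 13.6% of all 32851 promoters of this length. This window holds 4 CpG, and the median over all promoters is 7.

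Thbs1, the other trimeric member, activates latent TGF-beta and binds CD36 and CD47. Its log2 intensity was 9.29, 9.74 and 9.94 in AREG muscle at day 4, against 10.18, 10.94 and 10.75 in PBS muscle at day 4. By day 8 the level was 9.32, 9.47 and 9.39 in AREG muscle, against 9.83, 9.90 and 9.47 in PBS muscle. At day 8 the groups were separated only by a narrow gap between the highest AREG and the lowest PBS array. It fell by 0.97 ± 0.19 on the log2 scale at day 4 (adjusted p = 0.0236, limma), while the day 8 difference of -0.34 ± 0.19 was not called (adjusted p = 0.72, limma). AREG muscle at day 4 overlapped with both day 8 groups, and PBS muscle at day 4 stood above all 3.

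Thbs3 and Thbs4 belong to the pentameric thrombospondins, and Thbs4 is abundant in tendon and at muscle attachments. Thbs3 had log2 intensities of 7.95, 8.17 and 8.00 in AREG muscle at day 4, against 8.59, 8.65 and 8.60 in PBS muscle at day 4. Its day 4 difference of -0.57 ± 0.16 was not called (adjusted p = 0.0638, limma). A fit blocked on replicate numbers, which paired the day 4 arrays, called it (adjusted p = 0.0381, limma). The labels name no such pairs, which were taken from correlations among these same arrays. The day 8 values were 8.09, 8.08 and 7.44 in AREG muscle, against 8.11, 8.46 and 8.19 in PBS muscle. Without replicate 3 of AREG at day 8 that difference was -0.17, against -0.39 ± 0.16 with it. Thbs4 had log2 intensities of 11.82, 11.83 and 11.87 in AREG muscle at day 4, against 12.02, 12.26 and 12.34 in PBS muscle at day 4. For day 8 the values were 11.35, 11.39 and 10.67 in AREG muscle, against 11.63, 11.65 and 11.73 in PBS muscle. It was the one thrombospondin whose 4 groups were all separate from each other, in the order PBS day 4, AREG day 4, PBS day 8 and AREG day 8. Its AREG differences were -0.37 ± 0.16 at day 4 and -0.53 ± 0.16 at day 8, neither of them called (adjusted p = 0.253 and 0.599, limma), and without replicate 3 of AREG the day 8 difference was -0.30.

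The start of Thbs4 is given because the profile of this gene over the 12 arrays was the nearest to that of another of the 9 genes (GRCm38.p6, chr13:92794769-92795068, minus strand). Capitals mark 2 overlapping matches of the TEAD motif GGAATG on the opposite strand, 197 to 187 bases before the start, and 3 matches of the Sp1 motif GGGCGG on either strand.
Thbs4: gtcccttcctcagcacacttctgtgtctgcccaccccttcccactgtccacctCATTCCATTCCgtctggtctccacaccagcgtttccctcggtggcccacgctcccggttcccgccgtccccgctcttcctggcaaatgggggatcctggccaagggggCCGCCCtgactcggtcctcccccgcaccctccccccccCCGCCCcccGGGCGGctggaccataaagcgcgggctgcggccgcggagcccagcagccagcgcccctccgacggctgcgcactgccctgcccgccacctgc
GGAATG was present on either strand in 14.7% of all promoters and GGGCGG in 35.7%. With 24 CpG this window was the richest in CpG among the 9 windows found for the 9 genes.

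Tnc encodes a hexameric glycoprotein that in resting muscle is largely limited to the tendon junction and appears in the matrix after injury, where it binds integrins and Toll-like receptor 4. Its log2 intensity was 8.37, 9.31 and 9.52 in AREG muscle at day 4, against 10.29, 11.01 and 10.56 in PBS muscle at day 4. At day 8 it was 8.10, 7.77 and 6.86 in AREG muscle, against 8.63, 8.63 and 8.50 in PBS muscle. Both pairs of groups were separate, with a wider spread in AREG muscle (SD 0.61 at day 4 and 0.64 at day 8) than in PBS muscle (SD 0.36 and 0.08), a difference in spread that was not tested. Tnc fell by 1.55 ± 0.30 on the log2 scale at day 4, a 2.93-fold difference (adjusted p = 0.0218, limma). At day 8 the difference was -1.01 ± 0.30 (adjusted p = 0.599, limma), and -0.65 without replicate 3 of AREG.

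RefSeq lists 2 starts of Tnc, and the one farther along the gene is given because Tnc had the largest day 4 difference among the 7 genes with a start in the table (GRCm38.p6, chr4:64046887-64047186, minus strand). Capitals mark GCGNGGGCG, the motif of the early growth response factors, overlapping GGGCGG, and a TATAAA match 205 to 200 bases before the start.
Tnc: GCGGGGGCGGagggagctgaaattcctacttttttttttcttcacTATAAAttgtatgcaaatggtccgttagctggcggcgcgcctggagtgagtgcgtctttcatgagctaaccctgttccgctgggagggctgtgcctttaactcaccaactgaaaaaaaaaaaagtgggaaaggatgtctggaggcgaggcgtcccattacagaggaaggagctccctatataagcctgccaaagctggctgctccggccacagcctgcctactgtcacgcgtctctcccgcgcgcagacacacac
GCGNGGGCG was present on either strand in 5.55% of all promoters. The windows of both starts share 221 bases, so each of these matches is also in the other window. Among the 9 windows, which cover 7 of the 9 genes, 0 held the AP-1 motif TGANTCA or a CArG box, the site of serum response factor, and these were present in 7.81% and 1.63% of all promoters.

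Postn and Sparc are collagen-binding proteins, periostin promoting collagen cross-linking and Sparc handling collagen in the pericellular space. Neither passed the test for AREG on either day. Postn had log2 intensities of 11.80, 12.57 and 12.30 in AREG muscle at day 4, against 12.96, 13.21 and 12.90 in PBS muscle at day 4. For day 8 the values were 12.30, 11.97 and 10.27 in AREG muscle, against 12.34, 12.50 and 12.17 in PBS muscle. It was the only one of the 9 whose day 8 groups overlapped, and its day 8 difference of -0.83 ± 0.36 (adjusted p = 0.645, limma) rested on 1 array, being -0.20 without replicate 3 of AREG. At day 4 the difference was -0.80 ± 0.36 (adjusted p = 0.271, limma), and -0.59 without replicate 1 of AREG. Sparc had log2 intensities of 12.80, 12.57 and 12.76 in AREG muscle at day 4, against 13.07, 13.12 and 13.00 in PBS muscle at day 4. For day 8 the values were 12.41, 12.25 and 11.43 in AREG muscle, against 12.62, 12.47 and 12.48 in PBS muscle. Its differences were -0.35 ± 0.19 at day 4 (adjusted p = 0.377, limma) and -0.49 ± 0.19 at day 8 (adjusted p = 0.634, limma), with -0.19 at day 8 without replicate 3 of AREG.

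Cthrc1, a secreted glycoprotein with a short collagen-like repeat that activated fibroblasts make after injury, had the largest AREG difference of the 9 at day 4. Its log2 intensity was 8.68, 9.10 and 8.93 in AREG muscle at day 4, against 10.64, 10.51 and 10.43 in PBS muscle at day 4. By day 8 the level was 7.97, 7.78 and 7.22 in AREG muscle, against 8.04, 8.67 and 8.16 in PBS muscle. The 4 groups were all separate, in the order PBS day 4, AREG day 4, PBS day 8 and AREG day 8. The gap between the day 8 groups was narrow. The gap between AREG at day 4 (lowest 8.68) and PBS at day 8 (highest 8.67) was narrower still. Cthrc1 fell by 1.62 ± 0.19 on the log2 scale at day 4, a 3.08-fold difference (adjusted p = 0.00279, limma). At day 8 the difference was -0.63 ± 0.19 (adjusted p = 0.599, limma), and -0.41 without replicate 3 of AREG.

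C1qtnf3 encodes CTRP3, a secreted protein with a collagen-like stretch and a C1q-like head that fat and cartilage cells release. Its log2 intensity was 8.51, 9.57 and 9.32 in AREG muscle at day 4, against 10.51, 10.78 and 10.42 in PBS muscle at day 4. At day 8 it was 8.50, 8.79 and 7.68 in AREG muscle, against 9.52, 9.63 and 9.77 in PBS muscle. Both pairs were well apart. The differences were of like size, -1.44 ± 0.26 at day 4, called at an adjusted p of 0.0198 (limma), and -1.32 ± 0.26 at day 8, not called at an adjusted p of 0.599 (limma). The day 8 difference was the largest among the 9 and was -0.99 without replicate 3 of AREG.

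The start of C1qtnf3 is given because its AREG difference exceeded 1 on the log2 scale in size on both days (GRCm38.p6, chr15:10952082-10952381, plus strand). Capitals mark a GGAATG match 96 to 91 bases before the start and a TATAAA match in the 6 bases just before it.
C1qtnf3: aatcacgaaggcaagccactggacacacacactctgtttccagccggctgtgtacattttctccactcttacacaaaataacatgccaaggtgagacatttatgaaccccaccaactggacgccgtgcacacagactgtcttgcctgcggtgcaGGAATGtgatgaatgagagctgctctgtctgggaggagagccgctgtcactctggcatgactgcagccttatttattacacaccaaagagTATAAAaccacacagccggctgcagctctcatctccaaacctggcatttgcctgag
Of the 9 windows 2 held GGAATG, those of Thbs4 and C1qtnf3, and 5 held TATAAA, 2 of them the windows of Tnc that share 1 match. These matches describe the letters only.

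**Figure D2:**
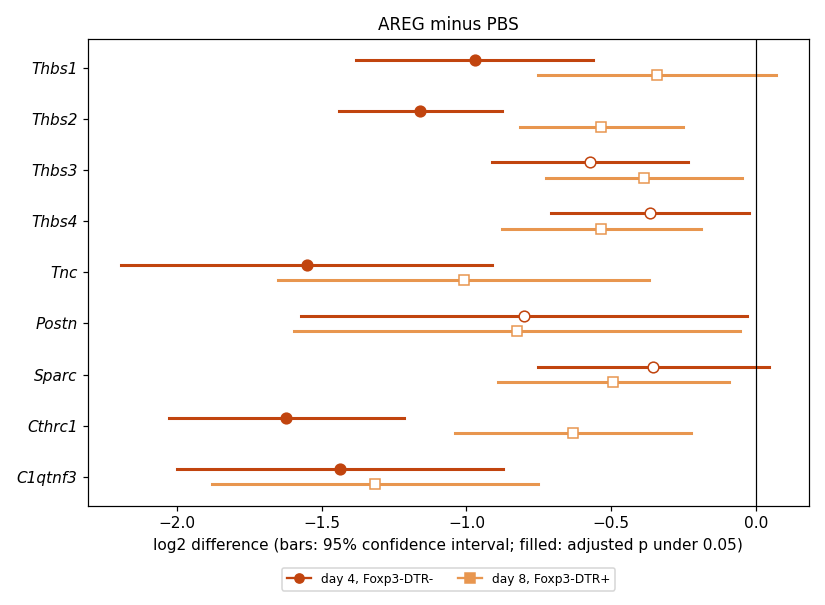
AREG minus PBS on the log2 scale for each gene (horizontal axis), at day 4 in Foxp3-DTR- mice (circles) and at day 8 in Foxp3-DTR+ mice (squares), with 95% confidence intervals from limma and filled symbols where the adjusted p over all genes was under 0.05. All 18 estimates lie below 0, and the filled symbols are Thbs1, Thbs2, Tnc, Cthrc1 and C1qtnf3 at day 4.

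The calls at day 4 rested on few arrays. Without replicate 1 or 3 of AREG or replicate 2 of PBS, 2 of the 9 genes passed, Thbs2 and Cthrc1, where 15, 9 and 9 of all 19752 genes did, against 573 with all arrays. These 2 passed in all 22 alternative fits. Without replicate 1 of AREG, which stood apart, Thbs1 differed by -0.79, Tnc by -1.20 and C1qtnf3 by -1.12 on the log2 scale, with adjusted p of 0.0738, 0.0724 and 0.0667 (limma). With both arrays that stood apart left out, a choice made after seeing the data, 8 of the 9 were called at day 4, where 1394 of all genes were, and 0 of the 9 at day 8, where 0 of all genes were. The median difference of the 9 genes was -0.97 at day 4 and -0.53 at day 8, where the medians of all genes were 0.04 and 0.01.

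The AREG differences of the 2 settings were also averaged, with 6 arrays per treatment. On this mean 7 of the 9 were called lower, against 2.99% of all genes. These included Thbs3 (-0.48 ± 0.11, adjusted p = 0.0339) and Thbs4 (-0.45 ± 0.11, adjusted p = 0.0432), which passed in neither setting alone (limma). The largest mean differences were those of C1qtnf3 (-1.38 ± 0.19), Tnc (-1.28 ± 0.21) and Cthrc1 (-1.13 ± 0.13). Postn (-0.81 ± 0.26, adjusted p = 0.0925) and Sparc (-0.42 ± 0.13, adjusted p = 0.0911) did not pass (limma). A fit blocked on replicate numbers, with pairs that the labels do not name, called Postn (adjusted p = 0.0374, limma). The count was 3 without replicate 2 of PBS at day 4, 4 without replicate 1 of PBS at day 8 and 4 without replicate 1 of AREG at day 4. In these fits 34, 80 and 61 of all genes were called in either direction, against 673 with all arrays. It was 4 without both arrays that stood apart, with 348 of all genes called.

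Whether AREG acted differently in the 2 settings was tested as the day 8 minus the day 4 difference, and 0 of the 9 were called, as of all genes (0% called, and 5.87% at an unadjusted p under 0.05, 3 of the 9 among them). Those 3 were Cthrc1 (0.99 ± 0.27, 95% interval 0.42 to 1.57, adjusted p = 0.579), Thbs2 (0.63 ± 0.19, interval 0.23 to 1.02, adjusted p = 0.63) and Thbs1 (0.63 ± 0.27, interval 0.05 to 1.21, adjusted p = 0.819), all by limma. For these the estimated fall with AREG was smaller at day 8. For C1qtnf3 the interval ran from -0.68 to 0.92, for Tnc from -0.36 to 1.45 and for Postn from -1.12 to 1.07, which leaves room for sizeable differences either way.

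In PBS muscle the 9 genes were lower at day 8 in Foxp3-DTR+ mice than at day 4 in Foxp3-DTR- mice. All 9 were non-overlapping in that direction, as were 14.2% of all genes, and 4 were called lower, as were 1.15% of all genes. Cthrc1 fell by 2.24 ± 0.19 on the log2 scale (a 4.72-fold difference, adjusted p = 1.01e-05) and Tnc fell by 2.04 ± 0.30 (4.11-fold, adjusted p = 0.00144), both by limma. Thbs2 fell by 1.35 ± 0.13 (adjusted p = 3.82e-05) and Thbs1 fell by 0.89 ± 0.19 (adjusted p = 0.0212), also by limma. The other 5 were C1qtnf3 (-0.93 ± 0.26), Postn (-0.68 ± 0.36), Sparc (-0.54 ± 0.19), Thbs4 (-0.54 ± 0.16) and Thbs3 (-0.36 ± 0.16), with adjusted p from 0.0935 to 0.457 (limma). In a fit of only these 6 arrays, or without replicate 3 of AREG at day 8, 8 of the 9 were called and Thbs3 was not. In these fits 759 and 719 of all genes were called in either direction, against 463 with all arrays.

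In AREG muscle the differences between days were smaller in size than in PBS muscle for Cthrc1, Tnc, Thbs1, Thbs2, Thbs3 and C1qtnf3, and larger for Thbs4, Sparc and Postn, with none of these gaps called. The called genes were Cthrc1 (log2 difference -1.25 ± 0.19, adjusted p = 0.00417), Tnc (-1.50 ± 0.30, adjusted p = 0.029) and Thbs2 (-0.72 ± 0.13, adjusted p = 0.014), all by limma, which made 3 of the 9 called lower, against 0.192% of all genes. The groups did not overlap for 5 of the 9, where 8.97% of all genes were wholly lower. Thbs1 differed by -0.26 ± 0.19 and Thbs3 by -0.17 ± 0.16, and in both genes the groups overlapped. Thbs4 (-0.70 ± 0.16) and Sparc (-0.68 ± 0.19) did not overlap and were not called (adjusted p = 0.0658 and 0.151, limma), while Postn (-0.71 ± 0.36) and C1qtnf3 (-0.81 ± 0.26) overlapped. The test of whether this change differed from that in PBS muscle is the same as the test of the AREG differences given above. In a fit of the 6 AREG arrays alone, and without replicate 2 or replicate 3 of AREG at day 4, Cthrc1 was the 1 gene of the 9 that passed, with 86, 97 and 83 of all genes called against 142. Without replicate 3 of AREG at day 8, Postn differed by -0.086, Sparc by -0.38, C1qtnf3 by -0.49, Thbs4 by -0.47 and Thbs3 by 0.049.

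**Figure D3:**
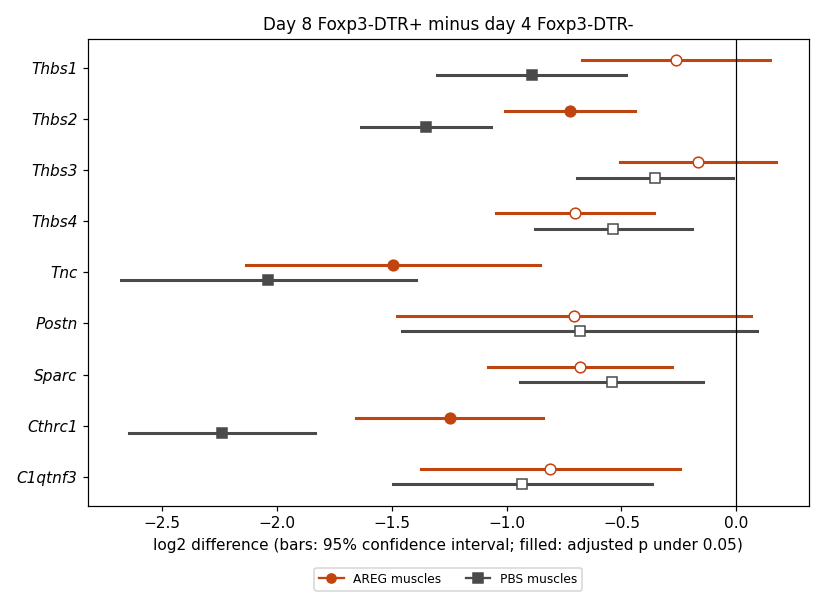
Day 8 Foxp3-DTR+ minus day 4 Foxp3-DTR- muscle on the log2 scale (horizontal axis) for AREG muscle (circles) and PBS muscle (squares), with 95% confidence intervals from limma and filled symbols where the adjusted p over all genes was under 0.05. The widest changes are those of Cthrc1 and Tnc in PBS muscle, at -2.24 and -2.04.

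The 9 genes did not share 1 profile. Likeness was measured as the root mean square difference between log2 profiles over the 12 arrays, each centred on its own mean, so that 0 is identity. Thbs4 and Sparc were each other's nearest gene among the 9875 brighter genes searched (median level and up), at 0.12, and Thbs3 was 0.23 from Thbs4 and 0.25 from Sparc. Cthrc1 was the second nearest gene to Tnc, at 0.33. Postn lay nearest to the fibrillar collagen Col3a1 (0.12), the follistatin-like matrix protein Fstl1 (0.16) and the proteoglycan Vcan (0.20). Sparc, after Thbs4, lay nearest to Pcolce, the enhancer of procollagen processing (0.13), and to Clec11a (0.13). The next genes to Thbs4 were the collagen receptor Antxr1 (0.13) and Olfml3 (0.14), and those nearest to Thbs3 were Bnc2 (0.10), the leucine-rich proteoglycan Ogn (0.11) and Ugdh, which makes the sugar precursor of glycosaminoglycans (0.11).

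For the other 5 genes the nearest were as follows. Cthrc1 lay nearest to the tubulins Tubb2b (0.23) and Tubb6 (0.32) and the microtubule kinase Dclk1 (0.30). Thbs2 lay nearest to the tubulin Tubb2a (0.16), the secreted Srpx2 (0.18) and the LIM protein Csrp2 (0.20). Tnc had Capn6 (0.32) and Nt5dc2 (0.35) beside Cthrc1. Thbs1 lay nearest to the chloride transporter Clcn5 (0.16), Ammecr1 (0.18) and Npl (0.20), and C1qtnf3 to Serpinb1a (0.30), Slc25a24 (0.31) and Ddah1 (0.32). Genes that vary more over the arrays have larger distances, and the own profile of Tnc had a root mean square of 1.17 where that of Thbs3 had 0.33.

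**Figure D4:**
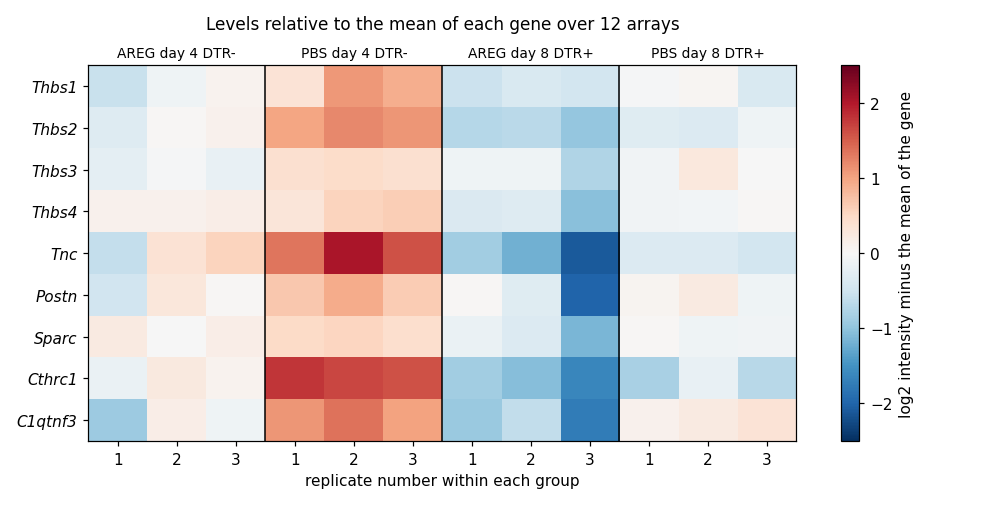
Colour shows log2 intensity minus the gene's mean over the 12 arrays, with genes as rows and arrays as columns by group and replicate number. Cthrc1 and Tnc span the widest range, and replicate 3 of AREG at day 8 is the lowest array of its group in all rows but that of Thbs1.

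Other matricellular genes had medians nearer to that of all genes. The median of the 23 measured was -0.02 with AREG at day 4, against 0.04 for all genes. Where 2.11% of all genes were called lower, 1 of the 23 was. It was Fbln2, a fibulin of elastic fibres and basement membranes, which fell by 0.67 ± 0.12 (adjusted p = 0.0198, limma). With AREG at day 4, 8 of the 23 had an unadjusted p under 0.05, all of them lower. Of all genes 17% had such a p in either direction. At day 8 limma called 0 of the list, and 3 had an unadjusted p under 0.05, as had 7.62% of all genes. The list median was -0.19, and 18 of the 23 were below 0, as were 48.8% of all genes. Fbln5 was at -0.35 ± 0.12 and Ccn2, connective tissue growth factor, at -0.53 ± 0.20 (adjusted p = 0.619 and 0.64, limma). On the mean of both settings Fbln2 (-0.35 ± 0.09) and the Wnt-induced Ccn4 (-0.48 ± 0.12) passed, calls that held in 10 and 8 of 21 alternative fits. Of all genes 2.99% were called lower on this mean. For the day 8 minus day 4 difference limma called 0, and 2 had an unadjusted p under 0.05, as had 5.87% of all genes. Fbln2 (0.63 ± 0.18) and Tnn (0.51 ± 0.23) had the smallest p. Between the PBS groups 3 were called lower, against 1.15% of all genes, namely the tenascin Tnn (-0.96 ± 0.16), Ccn4 (-0.87 ± 0.17) and Fbln2 (-0.83 ± 0.12). In AREG muscle 0 were called between days by limma and 6 had an unadjusted p under 0.05, as did 10.3% of all genes, with Ccn2 at -0.83 ± 0.20 and Ccn4 at -0.49 ± 0.17.

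Receptors and binding partners, 25 of 25 measured, had a median of -0.26 with AREG at day 4. Where 2.11% of all genes were called lower, 3 of the 25 were. They were the scavenger receptor Stab1, which takes up Sparc (-0.92 ± 0.17), the fibronectin receptor subunit Itga5 (-0.75 ± 0.17) and Lrp1, which clears thrombospondins by endocytosis (-0.57 ± 0.14), with adjusted p of 0.0204, 0.0334 and 0.0478 (limma). The call of Lrp1 held in 9 of 22 alternative fits and those of Stab1 and Itga5 in 19 and 18. With AREG at day 4, 11 of the list had an unadjusted p under 0.05, in both directions, as had 17% of all genes. At day 8 limma called 0 of the list, which had a median of -0.19. Of the 25, 6 had an unadjusted p under 0.05, as had 7.62% of all genes. The integrin subunits Itgav and Itgb1 were at -0.35 ± 0.13 and -0.32 ± 0.12. On the mean of both settings Stab1 (-0.54 ± 0.12), Lrp1 (-0.41 ± 0.10) and fibronectin, Fn1 (-0.74 ± 0.19), passed, calls that held in 13, 8 and 8 of 21 alternative fits. On this mean 2.99% of all genes were called lower. For the day 8 minus day 4 difference limma called 0, and 4 had an unadjusted p under 0.05, as had 5.87% of all genes. Cacna2d1 (-0.77 ± 0.24) and Stab1 (0.77 ± 0.25) had the smallest p. Between the PBS groups Stab1 fell by 1.05 ± 0.17 on the log2 scale (adjusted p = 0.00366, limma). It was the 1 gene of the list called, where 1.15% of all genes were called lower. In AREG muscle limma called 0 between days and 4 had an unadjusted p under 0.05, as did 10.3% of all genes, with Sdc1 at -0.34 ± 0.12 and Itgav at -0.35 ± 0.13.

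Genes induced by TGF-beta or by tension, of which 14 were measured, had a median of -0.62 with AREG at day 4. Of the 14, 3 were called lower, against 2.11% of all genes. The collagen cross-linking enzyme Lox fell by 1.05 ± 0.20, smooth muscle actin Acta2 fell by 0.87 ± 0.17 and the microfibril-binding Ltbp2 fell by 0.80 ± 0.12 on the log2 scale, with adjusted p of 0.021, 0.0242 and 0.0113 (limma). Tgfbi, at -0.76 ± 0.20, did not pass (adjusted p = 0.0537, limma). Of the 14 genes, 9 had an unadjusted p under 0.05 with AREG at day 4, as had 17% of all genes. At day 8 the median was -0.38, with 0 called by limma and 4 at an unadjusted p under 0.05, as had 7.62% of all genes. Acta2, Col1a1, Ccn2 and Fn1 lay between -0.78 and -0.53. On the mean of both settings Lox (-0.73 ± 0.14), Acta2 (-0.70 ± 0.12) and Ltbp2 (-0.42 ± 0.084) were called lower, and this held in 18, 19 and 17 of 21 alternative fits. Fn1 (-0.74 ± 0.19) was also called and lost its call in most of them, as given above. Among all genes 2.99% were called lower on this mean. For the day 8 minus day 4 difference limma called 0, and 2 had an unadjusted p under 0.05, as had 5.87% of all genes. Ltbp2 (0.76 ± 0.17), Lox (0.66 ± 0.28), Tgfbi (0.57 ± 0.28) and Ccn2 (-0.55 ± 0.29) had the smallest p. Between the PBS groups Acta2 (-1.51 ± 0.17), Lox (-1.44 ± 0.20), Ltbp2 (-1.16 ± 0.12) and Tagln (-0.62 ± 0.15) were called lower, against 1.15% of all genes. In AREG muscle Acta2 was called lower between days (-1.16 ± 0.17), against 0.192% of all genes.

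Markers of macrophages and of myoblasts were also lower with AREG at day 4, and their part in these results was not tested. Where 2.11% of all genes were called lower with AREG at day 4, 9 of 12 macrophage markers were. Their summed intensity ranged from 5955 to 8491 in AREG muscle at day 4, against 13623 to 17574 in PBS muscle at day 4. At day 8 it ranged from 5285 to 14347 in AREG muscle, against 12236 to 17513 in PBS muscle. With AREG at day 4, where 2.11% of all genes were called lower, 4 of 10 satellite cell and myoblast markers were. Their sum ranged from 12057 to 13111 in AREG muscle, against 15175 to 19181 in PBS muscle. Between the PBS groups 5 of these 10 were called lower at day 8, against 1.15% of all genes. Of the 12 macrophage markers limma called 0 there, and 0 had an unadjusted p under 0.05, against 13.1% of all genes. In AREG muscle 11 of the 12 were above 0 between days, with a median of 0.41, against -0.06 for all genes. Of the 12, 3 had an unadjusted p under 0.05, as had 10.3% of all genes. Limma called 1 higher (Aif1, 1.14 ± 0.23), where 142 of all genes were called in either direction.

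Of 18 measured markers of fibro-adipogenic progenitors and fibroblasts, limma called 0 lower and 1 higher with AREG at day 4, with 9 at an unadjusted p under 0.05, as had 17% of all genes. The gene called was the actin-severing Gsn at 0.48 ± 0.11, and all of these 9 but Gsn were lower. Of the 18, 14 were below 0, as were 40.9% of all genes. The median of the 18 was -0.36. Their sum ranged from 23159 to 27326 in AREG muscle at day 4, against 28877 to 33782 in PBS muscle at day 4. At day 8 it ranged from 16924 to 26206 in AREG muscle, against 25137 to 28367 in PBS muscle, the lowest array again being replicate 3 of AREG. The day 8 median of the 18 was -0.39, and 17 were below 0, as were 48.8% of all genes. Limma called 0 of the 18 at day 8, and 6 had an unadjusted p under 0.05, as had 7.62% of all genes. Pdgfra, which marks these cells, differed by -0.34 ± 0.15 at day 4 and by -0.24 ± 0.15 at day 8, not called in either (adjusted p = 0.245 and 0.748, limma). On the mean of both settings 1 of the 18 was called lower, Pdgfrl (-0.50 ± 0.12, adjusted p = 0.034, limma), against 2.99% of all genes.

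Tendon cell markers, 10 of 10 measured, had a median above 0 at day 4, at 0.38, with 0 called by limma. At day 4, 6 of them had an unadjusted p under 0.05, as had 17% of all genes. Of these 6, Col12a1 (-0.93 ± 0.26) and Egr1 (-0.51 ± 0.21) were lower and the rest higher. The sum of the list ranged from 5379 to 6211 in AREG muscle, against 4028 to 5859 in PBS muscle. At day 8 the list median was -0.52, also with 0 called and 4 at an unadjusted p under 0.05, as had 7.62% of all genes. The sum then ranged from 3233 to 4884 in AREG muscle, against 4401 to 6035 in PBS muscle. Col12a1 was called lower on the mean of both settings (-0.83 ± 0.18, adjusted p = 0.0278, limma). It was also called lower between the PBS groups (-1.12 ± 0.26, adjusted p = 0.0341, limma). Of 7 platelet markers 1 was called lower at day 4, against 2.11% of all genes. It was the chemokine Pf4 (-0.69 ± 0.16), which macrophages also express, and the list median was 0.03. Endothelial, smooth muscle and pericyte, mature fibre, neutrophil and Schwann cell markers had 0 called by limma with AREG on either day, with medians from -0.10 to 0.23. At most 4 of a list had an unadjusted p under 0.05. Those 4 were among the 10 smooth muscle and pericyte markers at day 4, where 17% of all genes had such a p. All 4 were higher with AREG, by 0.51 to 0.56 on the log2 scale, while the median of that list was 0.02. No list had a defining marker at 0, since the arrays report an intensity for every cluster.

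**Figure D5:**
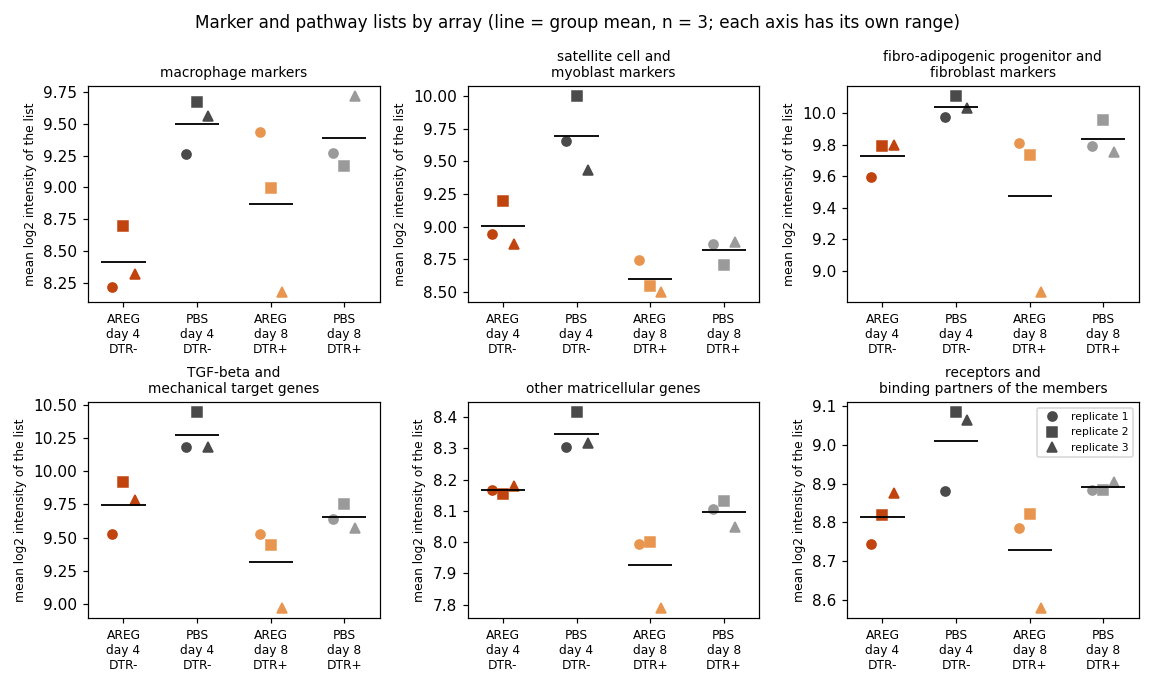
Mean log2 intensity of 6 gene lists (vertical axes, each with its own range) in the 4 groups, 3 arrays per group by replicate number and a line at the group mean. In all 6 panels AREG muscle at day 4 lies wholly below PBS muscle at day 4, and replicate 3 of AREG at day 8 is lowest of its group. The lists not plotted did not lie wholly below at day 4.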

How the data were processed

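The deposited values are intensities on a linear scale (4.65 to 21512.5, 24922 transcript clusters). Per the submitters' processing notes, the authors made them with Affymetrix Power Tools and RMA. RMA normally corrects background, equalises arrays and summarises probes. The spread of these values was still not equal across arrays, as given above. RMA can compress differences of dim genes. No version, build or annotation is given in the sources used here. They were log2-transformed as they stand, without a pseudocount or a filter on low values. Clusters with 1 symbol in the array's gene table (21425) gave 19752 genes, 921 of them represented by the brightest of several clusters. All 9 genes lay above the median level, and their Entrez numbers matched RefSeq (GRCm38.p6).

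Genes were fitted with limma 3.58.1 in R 4.3.3, with 4 group means and 1 shared spread (8 residual and 7.1 prior degrees of freedom), and p-values were two-sided and Benjamini-Hochberg adjusted over all genes. The fit was tested on simulated data. Members, lists and alternatives were chosen with earlier results of these data known. Named from the other matricellular genes and the receptors were genes called (up to 6 with the smallest p), or else the leading 2, with 4 throughout for TGF-beta targets, and the 3 genes nearest to each member. Gsn, Pf4, Pdgfra, Pdgfrl, Aif1, Col12a1 and Egr1 were named after their values were seen.

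Residuals of AREG and PBS arrays of the same replicate number correlated at 0.558, 0.201 and 0.511 at day 4, so the numbers were taken as pairs there, although replicate 2 of AREG correlated more with replicate 3 of PBS (0.27), and at -0.198, 0.123 and -0.003 at day 8, where they were not. Fits with and without the replicate block were made. The number of arrays limits the precision. Adjusted p-values without another name are limma's.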

Additional observations from a re-analysis of the deposited data

How the results depend on the processing

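Of 1170 values of the 9 genes under alternatives, 1053 kept their direction and their side of the threshold, 48 lost their call, 49 gained one and 20 changed sign. Leaving out 1 array gave 2 to 7 genes of the 9 called at day 4, 0 at day 8, 3 to 9 for the mean, 0 for the difference, 3 to 8 between the PBS groups and 1 to 3 between the AREG groups. Array quality weights gave 9 at day 4, 4 at day 8, 3 for the difference, 8 between the PBS groups and 7 between the AREG groups. These weights put most of the AREG means on 1 array a group (5.52 for replicate 3 at day 4, 7.43 for replicate 2 at day 8). A fit of only the 6 arrays compared gave 8 between the PBS groups and 1 between the AREG groups. With both arrays that stood apart left out, chosen after seeing the data, the counts were 8 at day 4, 4 for the mean and 8 between the PBS groups. The cause of these changes was not tested.

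Changes of sign concerned values that were not called. The difference of the AREG effects was 0.38 for Postn, 0.047 for Sparc and 0.059 for Thbs4 with array weights, 0.38, 0.21 and 0.055 without both arrays that stood apart, and 0.00645 for Postn with median centring. Leaving out 1 array it ranged from -0.42 to 0.60 for Postn, from -0.33 to 0.16 for Sparc, from -0.29 to 0.066 for Thbs4 and from -0.19 to 0.44 for C1qtnf3. Thbs3 between the AREG groups was 0.037 with array weights and 0.0032 without both arrays that stood apart, and ranged from -0.28 to 0.049 leaving out 1 array.

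The replicate block gave 6 of the 9 genes at day 4, adding Thbs3, and 914 genes in all, against 573 without it. It gave 0 at day 8, 8 for the mean, 0 for the difference, 4 between the PBS groups and 3 between the AREG groups, and the call it added for the mean was that of Postn. It changed no other call of the 9 genes. For the mean it gave 1104 genes in all, against 673 without it. Over all genes the day 4 count also reached 5305 with array weights, 938 in the 6 arrays alone, 877 after repeated quantile normalisation, 1394 without both arrays that stood apart and 358 with a pseudocount of 32, and ranged from 9 to 1336 leaving out 1 array. Array weights gave 1192 at day 8 (0 or 1 in all other fits), 4902 for the mean, 2232 for the difference (0 in all other fits), 1649 between the PBS groups and 6676 between the AREG groups. Unweighted, with all 12 arrays, the counts between the PBS and between the AREG groups were 463 and 142. The mean count was 444 with median centring and 348 without both arrays that stood apart, and ranged from 34 to 1488 leaving out 1 array. Between the PBS groups it was 759 in the 6 arrays alone, 1057 without both arrays that stood apart and 209 to 719 leaving out 1 array. Between the AREG groups it was 86, 415 and 79 to 458 in these settings, and 91 with a pseudocount of 32.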
